A study of Homo sapiens with 2 samples.

Results

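Cyclin-dependent kinase (CDK) inhibitor genes were described by chromatin accessibility in G401 cells. The group held 7 genes of 20163 protein-coding genes in the annotation. They were chosen by family and by no cut on their values, though earlier results of these data were known. They were CDKN2A, CDKN2B, CDKN2C and CDKN2D of the INK4 family, and CDKN1A, CDKN1B and CDKN1C of the CIP/KIP family. A peak was assigned to a gene when it came within 3 kb of any annotated transcription start or lay inside the gene body. By this rule 34 of 114060 peaks on the main chromosomes belonged to the 7 genes in the library of the DMSO group and 30 of 161184 in that of the MAK683 group.

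G401 is an established line from a malignant rhabdoid tumour of the kidney, a tumour type that lacks the chromatin remodelling subunit SMARCB1. In ATAC-seq the transposase Tn5 inserts adapters into open chromatin, and accessible DNA is read as stacks of sequenced ends. Cells were treated with MAK683, which inhibits Polycomb repressive complex PRC2 through its EED subunit, or with its solvent DMSO. Treatment lasted 3 days per the labels, and the dose in the series description was 3 µM. Each group was 1 library, so differences could not be set against a spread between replicates and are given without p-values. Tags left after filtering numbered 16598348 for DMSO and 18265284 for MAK683. No peak was called in the SMARCB1 gene on chromosome 22 (24129118 to 24180196) in either library.

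INK4 proteins bind CDK4 and CDK6 and keep them from pairing with D-type cyclins, which holds the retinoblastoma protein RB active against E2F factors. CIP/KIP proteins bind cyclin-CDK complexes, above all those of CDK2 with cyclins E and A. CDKN2A has separate starts for the INK4 protein p16 and for ARF, which is read in another frame and restrains MDM2, the ligase that degrades p53. PRC2 methylates lysine 27 of histone H3, and the CDKN2A and CDKN2B locus is among its long-known targets.

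At the p16 start the tallest promoter peak was taller in MAK683, and at the nearby ARF and CDKN2B starts it was not, so the DNA just before these 3 starts is shown. Each run is the 250 bases upstream of a start on the minus strand of GRCh37 (hg19), written 5′ to 3′. Capitals mark GC boxes, the letters GGGCGG on either strand, which Sp1-family factors bind. The p16 run is chr9:21974857-21975106, the ARF run is chr9:21995301-21995550 and the CDKN2B run is chr9:22009305-22009554.
p16: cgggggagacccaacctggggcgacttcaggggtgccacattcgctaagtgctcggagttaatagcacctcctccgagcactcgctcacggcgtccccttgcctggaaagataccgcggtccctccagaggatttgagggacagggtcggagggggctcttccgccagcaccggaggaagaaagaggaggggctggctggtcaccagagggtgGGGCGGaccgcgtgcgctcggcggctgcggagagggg
ARF: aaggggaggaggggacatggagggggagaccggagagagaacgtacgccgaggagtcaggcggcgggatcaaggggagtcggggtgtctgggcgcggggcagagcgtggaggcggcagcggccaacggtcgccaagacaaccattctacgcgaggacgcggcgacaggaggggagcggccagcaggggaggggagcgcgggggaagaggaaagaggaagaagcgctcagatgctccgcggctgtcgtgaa
CDKN2B: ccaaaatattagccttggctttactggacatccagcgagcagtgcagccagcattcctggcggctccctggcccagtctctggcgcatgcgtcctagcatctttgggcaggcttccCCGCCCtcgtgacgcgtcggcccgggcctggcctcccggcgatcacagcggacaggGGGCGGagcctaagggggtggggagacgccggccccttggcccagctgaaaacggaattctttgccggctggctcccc

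These runs held 1 GC box before p16, none before ARF and 2 before CDKN2B. Their GC content was 66.8%, 68.4% and 66.4%, and they held 20, 26 and 18 CpG dinucleotides. The summits of the p16 peaks in both libraries fell inside the p16 run, whereas the summits at ARF lay downstream of the ARF run, 492 bp past the farthest upstream start in DMSO and 476 bp past it in MAK683. Annotated ARF sites run from 21995300 to 21994391, and the summits lay 64 bp (DMSO) and 48 bp (MAK683) past the nearest of them. The ARF run precedes the farthest upstream site, so its letters do not describe the DNA at the summits. At CDKN2B the MAK683 summit was 12 bp before the start, inside the run, and the DMSO summit was 173 bp past it.

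Heights are the tags piled up over a peak's summit, also given per 1000000 tags after filtering (RPM). An RPM of 1 tag was 0.0602 in DMSO and 0.0547 in MAK683, and the lowest peak called held 6 tags in either library. Intervals are 95% exact intervals of the tags and cover counting error only. Annotated starts of a gene within 1 kb of each other were merged, which left 17 starts in the 7 genes. Each of 16 starts had a promoter peak in both libraries, and the far upstream start of CDKN1B had none in either. A peak counted for each start that its edge came within 3 kb of, so starts could share 1. With the summit required in that window, 15 starts had a peak in DMSO and 16 in MAK683. Counted by gene, all 7 had a promoter peak in both libraries. Of all 20163 protein-coding genes, 15374 had one in DMSO and 16635 in MAK683.

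Across all 16946 protein-coding genes with a promoter peak in at least 1 library, the median log2 ratio of promoter height, MAK683 over DMSO, was -0.42, with quartiles of -0.66 and -0.08. Among all genes 21.5% were higher in MAK683, 3.25% at least 2-fold higher and 5.21% at least 2-fold lower. By the tallest peak at any start, 1 of the 7 CDK inhibitor genes, CDKN2A, was higher, the other 6 were lower and none passed 2-fold in either direction. For 2 of the genes this measure set different starts against each other. At CDKN2A it compared the ARF peak in DMSO (31 tags) with the p16 peak in MAK683 (41 tags). At CDKN2C it compared the second start in DMSO (61 tags) with the first in MAK683 (41 tags). The median log2 ratio of the 7 genes was -0.26. Relative to the median of all genes it was 0.16, so its sign turned when the shift of all promoters was taken off. The 7 genes had a median promoter height of 2.29 RPM in DMSO and 1.92 RPM in MAK683, against 1.93 and 1.31 RPM over all genes.

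The 16 starts shared 10 distinct promoter peaks. Of these, 1 was higher in MAK683 and 9 were lower. The interval of the ratio lay above 0 at 1 peak, the one at p16, below 0 at 2 peaks, at the main start of CDKN1B and the second start of CDKN2C, and included 0 at the other 7. Over 14288 canonical promoters with a peak in both libraries, 0.819% had an interval above 0 and 16.9% an interval below 0. Set against the median of all genes instead of 0, the interval at p16 still lay above it and no interval lay below it. The shares of all promoters with intervals above or below that median are not given here.

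**Figure D1:**
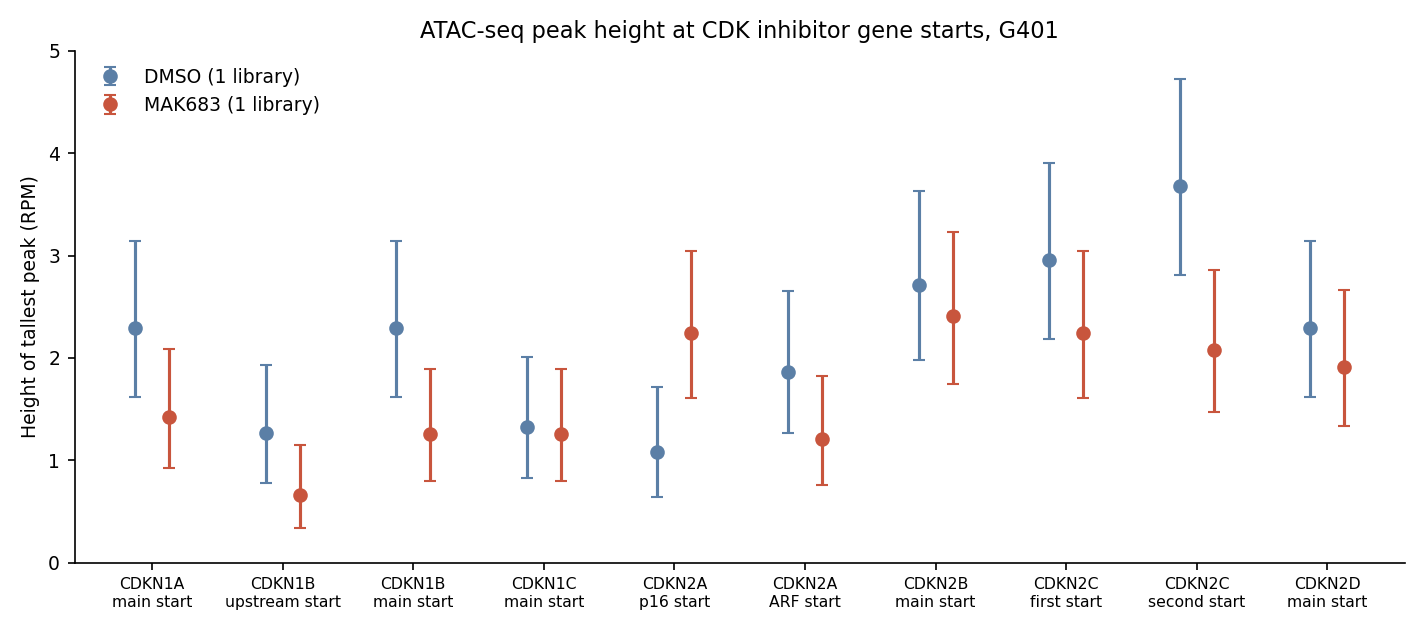
Height of the tallest peak in RPM at 10 starts of the CDK inhibitor genes in the DMSO and MAK683 libraries (1 library each), with 95% exact intervals of the tag counts. At the p16 start the MAK683 height of 2.24 RPM was above the DMSO height of 1.08 RPM, and at the other starts shown it was below.

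p16, the INK4 product of CDKN2A (ENSG00000147889.18, chromosome 9, 21967751 to 21995300, minus strand), was the one product whose tallest peak within 3 kb of its own start was taller in MAK683. In the DMSO library the tallest peak at this start ran from 21974338 to 21975736 and held 18 tags, or 1.08 RPM (0.643 to 1.71). In the MAK683 library it ran from 21974189 to 21976388 and held 41 tags, or 2.24 RPM (1.61 to 3.05). Both summits lay just upstream of the first p16 exon, within the intron that follows the first ARF exon, at 77 bp before the start in DMSO and 48 bp before it in MAK683. The log2 height ratio was 1.05 (0.22 to 1.94), or 2.07-fold, and 1.47 relative to the median of all genes.

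The p16 start is also the canonical start of CDKN2A. With 1 canonical start per gene, CDKN2A was the 1 gene of 7 that was higher in MAK683 and it passed 2-fold, where 21.5% of 16247 genes were higher and 3.37% passed 2-fold. The peaks differed in shape as well as height. DMSO had a further peak from 21975920 to 21976208 with 12 tags, in the part covered by the single MAK683 peak, so that the covered length was 1688 bp in DMSO and 2200 bp in MAK683. When all peaks within 3 kb of the start were summed, DMSO held 30 tags and MAK683 41, and the log2 ratio fell to 0.31. The interval above 0 at p16 is that of the tallest peaks. None was computed for the summed ratio, so a rise beyond counting error is not shown by the sum.

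ARF, whose first exon lies 20444 bp upstream of p16, was lower in MAK683, by an amount within counting error. In DMSO its peak spanned 3639 bp from 21993397 to 21997035 and held 31 tags, or 1.87 RPM (1.27 to 2.65). In MAK683 the main peak spanned 2670 bp from 21993622 to 21996291 and held 22 tags, or 1.20 RPM (0.755 to 1.82). Its summit was in the intron in DMSO and in the untranslated part of an exon in MAK683. The log2 ratio was -0.63 (-1.49 to 0.20), an interval that includes 0, and -0.21 relative to all genes. A second MAK683 peak from 21996509 to 21997096, with 11 tags, covered the upstream end of the DMSO peak, and with both summed the log2 ratio was -0.05. The start of CDKN2B-AS1, the antisense RNA also called ANRIL, is 29 bp from an ARF start on the other strand, so this peak cannot be given to either transcript.

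In DMSO the ARF peak was thus the taller of the pair, and in MAK683 the p16 peak was. The log2 ratio at p16 exceeded that at ARF by 1.68 (0.56 to 2.81, normal approximation), or 3.21-fold. Among 5075 genes with starts at least 10 kb apart and a peak at both, 6.7% had ratios that differed by 2-fold or more between such starts. CDKN2A and CDKN1B were the 2 genes of the family with such starts, and of them CDKN2A passed 2-fold. With all peaks in each window summed, the difference between p16 and ARF was 0.36 (-0.62 to 1.34), which includes 0.

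Between and beside these starts CDKN2A had low peaks in MAK683 alone. The gene had 3 peaks in DMSO and 7 in MAK683, and 4 of the 7 overlapped none in DMSO. Of 96207 MAK683 peaks at protein-coding genes, 49.6% overlapped none in DMSO. Of these 4, 3 lay in the large intron between the ARF and p16 first exons, at 21982717 to 21982916 (9 tags), 21984299 to 21984599 (9 tags) and 21984745 to 21984944 (7 tags). The fourth lay over a coding exon shared by p16 and ARF, at 21970829 to 21971262 (8 tags). All 4 were near the lowest height that was called, 6 tags. Over all genes with a peak, 37% had more peaks in MAK683 than in DMSO, and of the 7 CDK inhibitor genes CDKN2A and CDKN2D did.

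**Figure D2:**
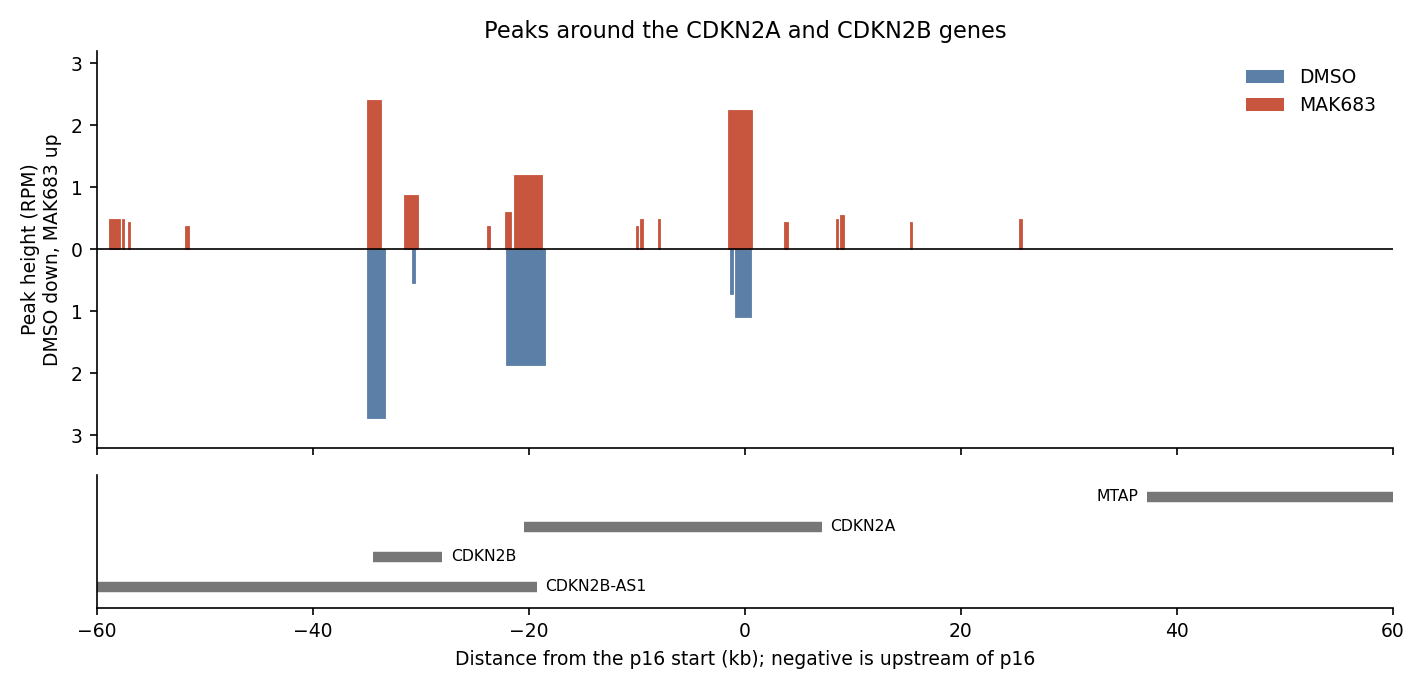
Peaks of the MAK683 library (up) and the DMSO library (down) by height in RPM within 60 kb of the p16 start, with gene bodies below; the x axis is distance in kb, negative upstream of p16. The 3 tall peaks of either library sit at CDKN2B, ARF and p16, and only the p16 peak is taller in MAK683.

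The same 3 positions held every peak of over 16 tags within 60 kb of the p16 start in both libraries. This cut falls in a narrow gap of these same values. The tallest peak elsewhere, over the 3′ exon of CDKN2B in MAK683, held 16 tags, and the p16 peak in DMSO held 18. DMSO had 5 peaks there and MAK683 had 18, of which 15 held at most 16 tags. The MAK683 library also had more peaks over the whole genome, as given above.

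CDKN2B (ENSG00000147883.12, 22002902 to 22009304, minus strand) encodes p15, an INK4 inhibitor of CDK4 and CDK6 that is induced by TGF-beta, and its main start is 34448 bp upstream of p16. Its promoter peak held 45 tags in DMSO, or 2.71 RPM (1.98 to 3.63), and 44 tags in MAK683, or 2.41 RPM (1.75 to 3.23). It ran from 22008219 to 22009841 and from 22008566 to 22009818. The log2 ratio was -0.17 (-0.80 to 0.46) and turned to 0.25 relative to all genes. The ratio at p16 exceeded it by 1.22 (0.22 to 2.22). With all peaks in the window summed, CDKN2B held 45 tags in DMSO and 60 in MAK683, since its next MAK683 peak reached into the window, and its log2 ratio turned to 0.28. The difference from p16 was then 0.04 (-0.84 to 0.91), which includes 0. A lower peak over the 3′ exon, in its untranslated part, held 9 tags in DMSO (22005431 to 22005693) and 16 in MAK683 (22005102 to 22006471), a log2 ratio of 0.69 (-0.57 to 2.05).

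CDKN2C (ENSG00000123080.12, chromosome 1, 51426417 to 51440306, plus strand) encodes p18, another INK4 inhibitor. It had the tallest peak of the family in DMSO. This peak covered the second and the canonical start and held 61 tags, or 3.68 RPM (2.81 to 4.72), from 51433673 to 51436475. In MAK683 it ran from 51433389 to 51436383 and held 38 tags, or 2.08 RPM (1.47 to 2.86). The log2 ratio of -0.82 (-1.45 to -0.21) was below 0 beyond counting error. Relative to all genes it was -0.40 (-1.02 to 0.21), which includes 0. Relative to the second start the summit lay at -107 bp in DMSO and at -144 bp in MAK683, where negative is upstream.

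The first start of CDKN2C had its own peak of 49 tags in DMSO (2.95 RPM) and 41 in MAK683 (2.24 RPM), a log2 ratio of -0.40 (-1.03 to 0.23), or 0.03 relative to all genes. It lies 478 bp from a start of FAF1, which encodes a ubiquitin-binding protein and runs the other way. A peak with its DMSO summit in a coding exon, 3774 bp past the canonical start, held 15 tags in DMSO and 8 in MAK683, and 2 DMSO peaks of 9 and 8 tags overlapped none in MAK683. Of 80861 DMSO peaks at protein-coding genes, 45% overlapped none in MAK683. The gene thus had 6 peaks in DMSO and 3 in MAK683.

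CDKN2D (ENSG00000129355.7, chromosome 19, 10677136 to 10679735, minus strand) encodes p19, an INK4 inhibitor whose expression is periodic in the cell cycle. Its promoter peak held 38 tags, or 2.29 RPM (1.62 to 3.14), in DMSO and 35 tags, or 1.92 RPM (1.33 to 2.66), in MAK683. The positions were 10678868 to 10680554 and 10678854 to 10680409. The log2 ratio was -0.26 (-0.96 to 0.44), which became 0.17 relative to all genes. Beyond the 3′ end of the gene, 2949 bp past the start, a peak held 29 tags in DMSO and 18 in MAK683, a log2 ratio of -0.83 (-1.76 to 0.07). A start of the protein-coding gene KRI1, on the same strand, is 2948 bp from a CDKN2D start. This peak therefore cannot be given to CDKN2D alone, though it is counted there. A DMSO peak of 13 tags in the 3′ untranslated region was matched by 2 MAK683 peaks of 11 and 8 tags, which gave the count of 3 peaks in DMSO and 4 in MAK683.

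**Figure D3:**
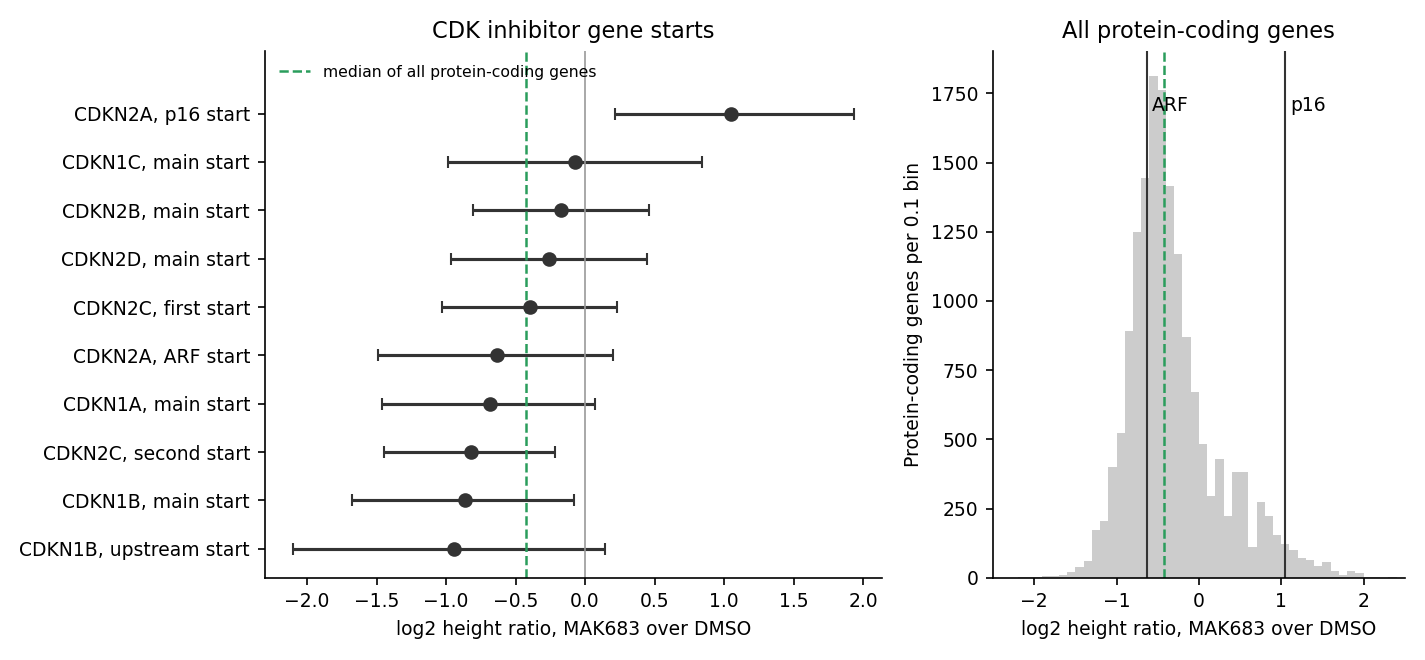
Left, log2 height ratio (MAK683 over DMSO) at 10 starts with 95% exact intervals; right, the number of protein-coding genes by the same ratio at their canonical start. The dashed line is the median of all genes, -0.42; p16 at 1.05 lies to its right with an interval above 0, and ARF at -0.63 lies to its left.

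Of the CIP/KIP genes, CDKN1A (ENSG00000124762.14, chromosome 6, 36644237 to 36655114, plus strand) encodes p21, the inhibitor that p53 induces. In DMSO a single peak of 5108 bp, from 36643888 to 36648995, spanned both starts and held 38 tags, or 2.29 RPM (1.62 to 3.14). In MAK683 the same stretch was called as 3 peaks. The tallest ran from 36644823 to 36646664 at the main start and held 26 tags, or 1.42 RPM (0.930 to 2.09). The log2 ratio of the tallest peaks was -0.69 (-1.46 to 0.07), and -0.27 relative to all genes. Since DMSO counted once what MAK683 counted as 3 peaks, the sum over the window of the main start was 38 tags in DMSO and 51 in MAK683, and the log2 ratio turned to 0.29. The direction at CDKN1A thus differed between the tallest peak and the sum.

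The other 2 MAK683 peaks of that stretch held 13 tags, from 36643843 to 36644565 over the first start, and 12 tags, from 36646793 to 36648880 past the main start. The first of them contained a pair of CATG cores of the p53 consensus, written CATGNNNNNNCATG, which reads the same on both strands. It was looked for after the peaks had been seen, at the gene p53 is best known to act on.
CDKN1A site: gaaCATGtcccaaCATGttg

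This 20-base site lies at chr6:36644226-36644245 on the plus strand, across the first base of the gene, and capitals mark the cores. The summit of the 13-tag MAK683 peak was 165 bp from its centre, and the summit of the wide DMSO peak that also covered it was 2217 bp away. These distances compare unlike peaks. The tallest MAK683 peak of the stretch had its summit at 36646395, near the DMSO summit at 36646453. The DMSO height at the site itself is not known from the wide peak. Of windows of 723 bp around the summits of all MAK683 peaks, 2.31% held such a pair. That share is for 1 window, whereas the search covered 34 DMSO and 30 MAK683 peaks of varied length. The starts of the noncoding RNAs DINOL, 151 bp from the main start, and PANDAR, 1334 bp from the first, lie in the same stretch on the other strand. The gene had 5 peaks in each library. In DMSO, 3 low peaks of 8 to 10 tags overlapped none in MAK683, and in MAK683 1 peak of 9 tags in the 3′ untranslated region overlapped none in DMSO. At all protein-coding genes, 45% of DMSO peaks and 49.6% of MAK683 peaks overlapped none in the other library.

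CDKN1B (ENSG00000111276.12, chromosome 12, 12838432 to 12875303, plus strand) encodes p27, which the ligase subunit SKP2 marks for degradation. It was lower in MAK683 at each start with a peak. At the main start the DMSO peak ran from 12866777 to 12871642 with 38 tags, or 2.29 RPM (1.62 to 3.14), and the MAK683 peak from 12867319 to 12871320 with 23 tags, or 1.26 RPM (0.798 to 1.89). The log2 ratio was -0.86 (-1.68 to -0.08). Relative to all genes it was -0.44 (-1.25 to 0.34), which includes 0. Its summits lay at -129 bp in DMSO and -301 bp in MAK683 from the start.

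At the upstream start of CDKN1B, 140 bp from the start of the receptor gene GPR19, the taller peak held 21 tags in DMSO and 12 in MAK683, a log2 ratio of -0.95 (-2.10 to 0.14). Its neighbour from 12848639 to 12849412 held 19 tags in DMSO and 8 in MAK683, a log2 ratio of -1.39 (-2.79 to -0.13). The ratios at the upstream and main starts, 21021 bp apart, differed by -0.08 (-1.35 to 1.18, normal approximation), within counting error. Peaks numbered 7 in DMSO and 3 in MAK683, and 4 of the 7 overlapped none in MAK683, against 45% of DMSO peaks at all protein-coding genes. The 4 found in DMSO alone held 15 tags (12857436 to 12857930, intron), 9 tags (12865392 to 12865591, intron), 15 tags (12871942 to 12872260) and 10 tags (12872381 to 12872711), the last 2 in untranslated sequence.

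CDKN1C (ENSG00000129757.15, chromosome 11, 2904443 to 2907005, minus strand) encodes p57, an imprinted inhibitor expressed from the maternal copy. Its promoter peak held 22 tags, or 1.33 RPM (0.831 to 2.01), in DMSO and 23 tags, or 1.26 RPM (0.798 to 1.89), in MAK683. The peak ran from 2906242 to 2907279 in DMSO and from 2906271 to 2907950 in MAK683. The log2 ratio was -0.07 (-0.98 to 0.84), and 0.35 relative to all genes. This gene had 8 peaks in DMSO, the most of the family there, and 6 in MAK683, and every peak overlapped one of the other library. At all protein-coding genes, 45% of DMSO peaks and 49.6% of MAK683 peaks overlapped none.

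Along CDKN1C the regions downstream of the main start were higher in MAK683 by their tallest peak, and those upstream were not. The region over the second start held 8 tags in DMSO and 15 in MAK683, a log2 ratio of 0.77 (-0.56 to 2.21). There DMSO had 2 peaks, of 8 and 7 tags, where MAK683 had 1, so the ratio compares unlike peaks. The next region held 8 and 12 tags (0.45, -0.96 to 1.94), and the last, past the 3′ end, 8 and 11 tags (0.32, -1.13 to 1.84). Upstream, a region held 10 and 11 tags (0.00, -1.38 to 1.39) and the farthest 22 and 20 tags (-0.28, -1.23 to 0.67). All of these intervals include 0. With all peaks in the window of the main start summed, DMSO held 97 tags and MAK683 81, a log2 ratio of -0.40.

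**Figure D4:**
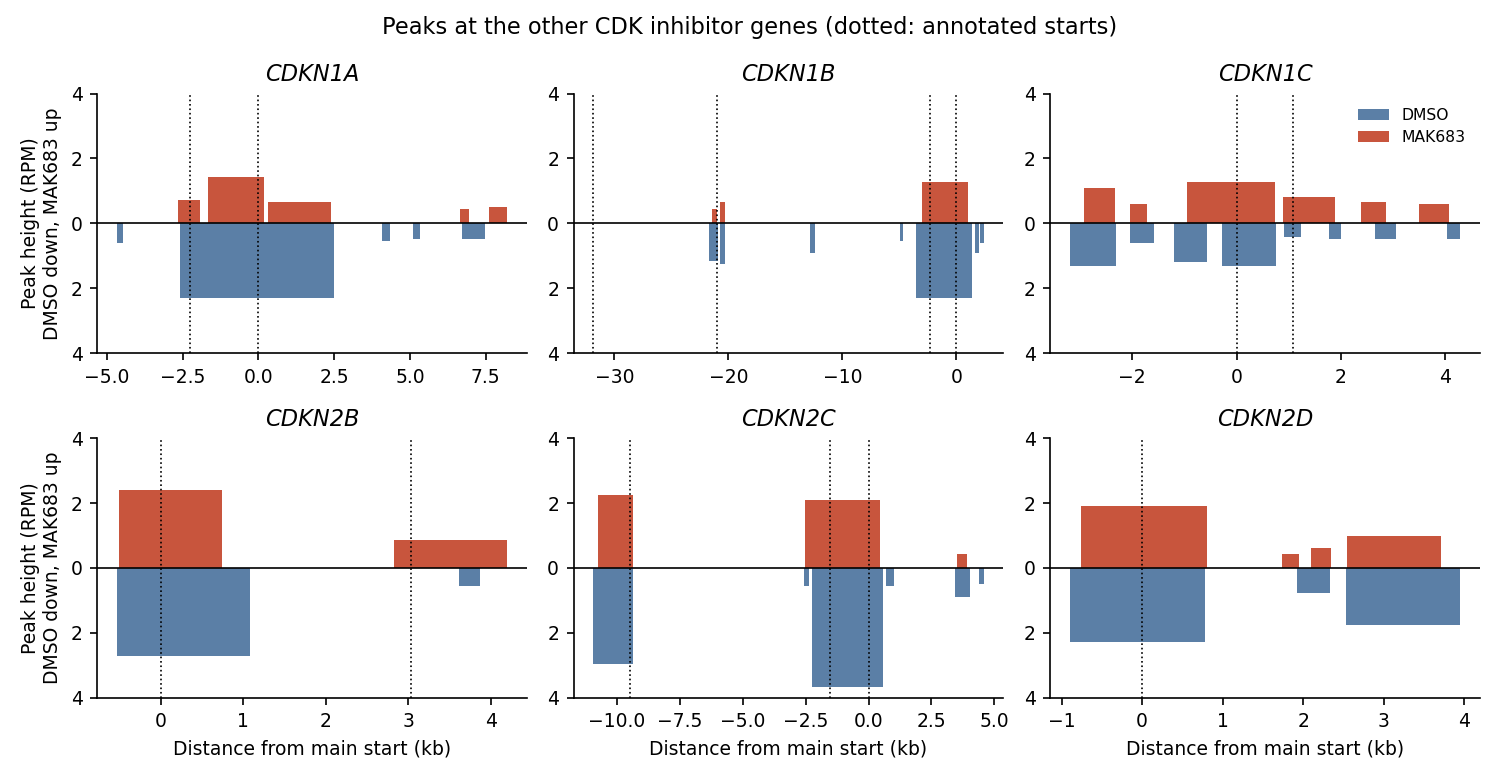
Peaks of the MAK683 library (up) and the DMSO library (down) by height in RPM against distance in kb from the main start, in the direction of transcription, for the 6 genes other than CDKN2A; dotted lines are annotated starts. CDKN1A has 1 wide DMSO peak where MAK683 has 3, and CDKN1B has 7 DMSO peaks against 3.

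When overlapping peaks of both libraries were merged, the 7 genes held 35 regions, 21 of them with a peak in both, 9 in DMSO alone and 5 in MAK683 alone. Of 124294 regions built the same way at all protein-coding genes, 32.2% had a peak in both, 29.4% in DMSO alone and 38.4% in MAK683 alone. Of the 21, 5 were higher in MAK683 and 16 lower by their tallest peak, with a median log2 ratio of -0.28. The 5 were the p16 region, the 3 downstream regions of CDKN1C and the 3′ region of CDKN2B. Intervals lay above 0 at 1 region, p16, and below 0 at 3, of which 2 were in CDKN1B and 1 in CDKN2C. Among the 39990 regions shared at all protein-coding genes, 21.3% were higher in MAK683, 0.5% had an interval above 0 and 7.59% an interval below 0. Against the median of all promoters, the interval at p16 lay above it and none of the 21 lay below it. The shares of all shared regions against that median are not given here. The 9 regions called in DMSO alone held 8 to 15 tags and the 5 called in MAK683 alone 7 to 9 tags. Of these 5, 4 were in CDKN2A and 1 in CDKN1A.

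Set against the main starts of the other genes, the log2 ratio at p16 was higher by 1.74 (0.66 to 2.81) than at CDKN1A, 1.91 (0.82 to 3.01) than at CDKN1B, 1.87 (0.88 to 2.86) than at CDKN2C and 1.31 (0.27 to 2.34) than at CDKN2D. It exceeded that at CDKN1C by 1.12 (-0.04 to 2.29), which includes 0. With all peaks in each window summed, the differences were 0.03 (-0.88 to 0.94) from CDKN1A, 1.90 (0.94 to 2.87) from CDKN1B, 1.51 (0.63 to 2.39) from CDKN2C, 0.60 (-0.22 to 1.42) from CDKN2D and 0.71 (-0.09 to 1.51) from CDKN1C. Of these, the differences from CDKN1B and CDKN2C kept an interval above 0. These intervals use a normal approximation, are not corrected for the number of pairs and cover counting error only.

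The start sequences differed among the genes. In the 300 bases from 250 before a start to 50 after it, the p16 start had 69% GC, 26 CpG dinucleotides and 2 GC boxes. The ARF start, taken at its farthest upstream site and not at the summits, had 64% GC, 28 CpG and no GC box. The main starts of CDKN2B and CDKN1A had 67.3% and 74.3% GC, with 2 and 4 GC boxes. CDKN1C was the most CpG-rich main start, with 77% GC, 48 CpG and 5 GC boxes, and the only start of the family with the letters TATAAA. Main starts of CDKN1B and CDKN2D had 62.3% and 68% GC, with 1 and 3 GC boxes, whereas the canonical start of CDKN2C had 49.3% GC, 11 CpG and 1 GC box. Its second start, near the summit, had 71.3% GC, 37 CpG and 6 GC boxes.

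Over 20140 protein-coding promoters the median was 63.7% GC and 23 CpG. A GC box (GGGCGG, both strands) was found in 61% of them, the letters CCAAT on either strand in 36% and TATAAA on either strand in 9.79%. CCAAT occurred 3 times at the main starts of both CDKN1B and CDKN1C and not at p16, ARF or CDKN2B. The E2F letters TTTCGCGC, TTTGGCGC and TTTCCCGC, on either strand, were found in 3.69% of promoters and at none of the 17 starts. A match describes letters in this window only.

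The partners of the inhibitors were followed in lists of other cell cycle genes. Of 12 cyclins and kinases that the inhibitors bind, all had a promoter peak in both libraries. Among all 20163 genes, 15374 had one in DMSO and 16635 in MAK683. Of the 12, 3 were higher in MAK683 and 9 lower, with a median log2 ratio of -0.42. CDK4 and CDK6, the targets of the INK4 proteins, held 54 and 41 tags in DMSO and 40 and 51 in MAK683, with log2 ratios of -0.57 (-1.20 to 0.05) and 0.18 (-0.44 to 0.81). CDK2, the main target of the CIP/KIP proteins, held 55 tags in DMSO and 48 in MAK683 (-0.33, -0.92 to 0.25). These kinases were named after their values had been seen.

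Among 13 RB and E2F genes, 3 were higher and 10 lower, with a median of -0.38. In the p53 axis, 1 of 8 genes was higher and 7 lower, with a median of -0.60. All 11 genes of inhibitor turnover and kinase activation were lower, with a median of -0.48. Over these 44 genes the log2 ratios ran from -0.996 (E2F2, which encodes an E2F activator) to 0.906 (GADD45G, a stress response gene), both named after their values had been seen. Of them 7 were higher and 37 lower, where 21.5% of all genes were higher, and none passed 2-fold either way. The medians of the lists lay near that of all genes, -0.42.

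Neighbours in the same loci were mixed, with 3 of 7 higher, 4 lower and a median of -0.04, where 21.5% of all genes were higher. The promoter peak of CDKN2B-AS1, 1 of the 7, is the ARF peak described above, of 31 and 22 tags. On the far side of p16 from ARF, MTAP, a gene of methionine salvage often lost together with CDKN2A in tumours, held 44 tags in DMSO and 29 in MAK683, a log2 ratio of -0.74 (-1.47 to -0.03). DMRTA1, past CDKN2B, held 22 and 29 tags (0.26, -0.59 to 1.13). In the imprinted domain of CDKN1C, KCNQ1, a potassium channel gene, had a promoter peak in MAK683 alone, of 9 tags or 0.493 RPM, which is a log2 ratio of at least 0.45 against the lowest height called in DMSO. KCNQ1OT1, the noncoding RNA of that domain, held 15 and 16 tags. Of these neighbours KCNQ1 alone met the rule for naming, and CDKN2B-AS1 was named for the shared peak. MTAP, DMRTA1 and KCNQ1OT1 were chosen after their values had been seen.

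**Figure D5:**
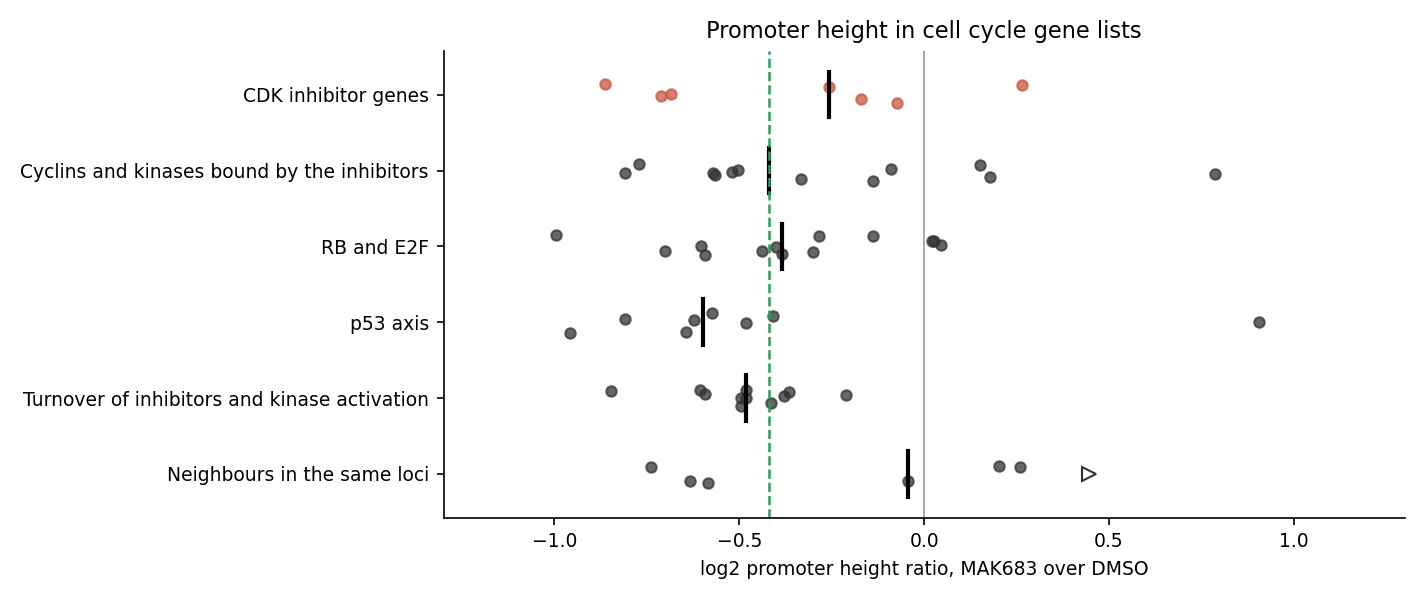
Log2 promoter height ratio (MAK683 over DMSO) of the CDK inhibitor genes and of 5 lists of related genes, 1 point per gene, by the tallest peak at any start. At CDKN2A and CDKN2C the tallest peaks of the 2 libraries lie at different starts. Black bars are medians, the dashed line is the median of all genes at -0.42, and the open triangle is KCNQ1, a lower bound; no gene lies past 2-fold.

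The genes whose canonical promoters were most like p16 in both libraries, by Euclidean distance of the log2 heights over the 2 libraries and among 16247 genes, were NDRG1, MEIS1 and LIN7A. NDRG1, a stress and differentiation response gene, held 18 tags in DMSO and 42 in MAK683, at a distance of 0.0348. MEIS1, a homeobox gene, held 19 and 39 tags, at 0.106. LIN7A, which encodes a scaffold protein of cell junctions, held 17 and 39 tags, at 0.11. Likeness over 2 libraries rests on few tags and carries no test.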

How the data were processed

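The samples were the DMSO and MAK683 libraries of G401 cells, 1 of each. The authors trimmed reads with Trim-galore and used Bowtie2 against hg19. Per the file headers, MACS 2.1.1.20160309 called the peaks of each library by itself. The processing notes in the labels also list MACS2 2.1.0 and 2.2.7.1. Reads were taken as single ends, shifted by -100 bp and extended to 200 bp, with 1 tag kept per position, no control, no local background and a q cutoff of 0.05. The deposited pileup is a coverage signal in whole tags with no scaling. Fold enrichment, as deposited, is a ratio to a genome-wide background, and the deposited −log10 p-values and −log10 q-values grow with depth. Fold enrichment and −log10 q served only for alternatives.

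From these files, heights were divided by tags after filtering (of 23901891 and 26692938 tags in all) and multiplied by 1000000. Starts came from GENCODE 44 lifted to GRCh37, and sequences from the GRCh37 genome, whose chromosome lengths held all peaks. The height of a start was its tallest peak within 3 kb, counted once for each start it reached. Where a gene had a promoter peak in 1 library alone, the other was set to the lowest height called in DMSO (0.361 RPM). Single log2 ratios have exact conditional binomial intervals, and heights exact Clopper-Pearson intervals. No source used here names molecular identifiers, so tags may repeat a molecule. The named genes were all 7 members, list genes past 2-fold or with a promoter peak in 1 library alone, and the 3 genes nearest to p16. The members and lists were chosen with earlier results of these data known. Scripts ran in Python 3.11.15 with numpy 2.4.6, pandas 2.3.3 and scipy 1.17.1 and were tested on simulated data. Alternatives changed the window, the q cutoff, the starts, the scaling and the use of the tallest peak.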

Additional observations from a re-analysis of the deposited data

How the results depend on the processing

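Of 140 alternative values, 130 stayed within counting error of the reported value or within 1.5 times the reported count, and no called direction reversed. Many of them could not move, so the count of 130 says little about robustness. The window, summit and q settings kept the same tallest peaks at the compared starts, and the log2 ratio at p16 stayed 1.05. Depth scaling and centring cancel in a difference between 2 starts. The log2 ratio at p16 ran from 0.31, with all peaks in the window summed, to 1.47, centred on all promoters, and that at ARF from -0.65 to -0.05. With summed peaks the difference between p16 and ARF fell to 0.36, because 2 DMSO peaks at p16 and 2 MAK683 peaks at ARF then count together, and the ratios at CDKN1A and CDKN2B turned to 0.29 and 0.28. The differences of p16 from CDKN1A and CDKN2B then fell to 0.03 and 0.04. These differences with summed peaks, and intervals set against the median of all genes, were added after the data had been seen. The number of the 7 genes higher in MAK683 was 1 as reported, 2 with no depth scaling, 2 with summed peaks and 4 centred on all promoters. The median of the 7 genes ran from -0.29 to 0.16, the latter centred on all promoters. Peaks at the 7 genes fell to 22 in DMSO with a −log10 q of at least 5, and to 17 in DMSO and 12 in MAK683 with at least 10. Single libraries and peaks of few tags limit all values, and culture, treatment and library cannot be told apart. No paired analysis was possible because each group had 1 library and the result comes from no test.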
